A study of Rattus norvegicus with 172 samples.

Results

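The 38 genes described here encode the clotting factors, clotting inhibitors, clot-dissolving enzymes and complement proteins that liver makes for the blood. They were chosen by symbol from a fixed list: F2, F5, F7, F9, F10, F11, F12, F13b, Fga, Fgb, Fgg, Serpinc1, Serpind1, Serpinf2, Serping1, Plg, Proc, Pros1, Klkb1, Kng1, Cpb2, Vtn, C1s, C2, C3, C4b, C5, C6, C8a, C8b, C8g, C9, Cfb, Cfi, Masp1, Masp2, Mbl1 and Mbl2. The list rests on function, with no threshold on a measured value, but it was chosen with earlier results of these data known. Each of the 38 symbols matched 1 Ensembl gene among the 19777 genes with a symbol and the 32883 genes counted in all. Of the 38, 37 had enough reads to be tested.

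Liver RNA came from 70 male Fischer F344 rats, an inbred strain, after 90 days of exposure. Furan is a small oxygen-containing ring compound that forms when food is heated, and 3-methylfuran is the same ring with a methyl group. Daily doses are given in mg per kg of body weight. In the furan experiment 8 rats served as controls, 8 received 0.03, 8 received 0.12, 7 received 0.5 and 7 received 2.0. For 3-methylfuran there were 8 controls, and 8 rats received 0.02, 8 received 0.075 and 8 received 1.0. The groups carry diet codes in the labels. Each group was set against the controls of its own experiment, because the library kit changed together with the compound. Control rats are described alike in the labels, and the rat number in the sample title assigned them to an experiment.

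Clotting proceeds as a chain of proteases. Each is made as an inactive precursor, and the last one, thrombin, turns fibrinogen into fibrin. Antithrombin and the protein C system hold thrombin generation back, and plasmin dissolves the fibrin. Complement is a second protease chain in blood plasma. It is started by antibody, by sugars on microbes or by slow spontaneous activation, converges on C3, and ends in a pore made of C5 to C9. Hepatocytes are the main source of nearly all of these proteins. Liver RNA reports on the level of their messenger RNA, and neither protein synthesis nor concentration in blood was measured.

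Total counts per rat, in megacounts (M), ran from 11.4 M to 27.7 M for furan (median 16.3 M) and from 11.1 M to 50 M for 3-methylfuran (median 14.9 M). All levels are CPM, counts brought to a common library total, after TMM scaling, which corrects for differences in RNA composition. A gene was called at an edgeR quasi-likelihood adjusted p under 0.05, with adjustment over all genes tested. The tissue label was checked on hepatocyte markers, which include albumin: their summed level lay between 171841 and 195951 CPM in furan controls and between 195792 and 218396 CPM in 3-methylfuran controls. At furan 2.0 that sum was 105869 to 161392 CPM, below every furan control, with 6 of 8 markers lower and 2 higher. At 3-methylfuran 1.0 it was 165332 to 215105 CPM and overlapped its controls, with 4 markers lower and 1 higher. Over all genes tested, 22.5% were called lower at each of these doses, and 24% and 21.2% higher. In bulk tissue, fewer hepatocytes and less RNA per hepatocyte cannot be told apart.

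Together the 38 genes were lower at the highest dose of each compound. Their summed level in furan controls was 54375 CPM in the lowest rat, 61395 at the median and 64755 in the highest. At furan 2.0 the same sum was 31114, 38803 and 52413 CPM. In 3-methylfuran controls it was 52198, 57242 and 60773 CPM, and at 3-methylfuran 1.0 it was 39698, 44079 and 51837 CPM. Neither top dose group overlapped its controls in this sum. The other doses did overlap, with medians of 60188, 58701 and 56058 CPM at furan 0.03, 0.12 and 0.5 and of 57880 and 57566 CPM at 3-methylfuran 0.02 and 0.075. The size of this drop depends in part on the scaling: as a share of all raw counts the 38 genes took 5.66 ± 0.244% in furan controls (SD, n = 8) and 4.81 ± 0.325% at furan 2.0 (n = 7). For 3-methylfuran the shares were 5.46 ± 0.348% (n = 8) and 5.17 ± 0.302% (n = 8). In both experiments the ranges of this share overlapped.

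**Figure D1:**
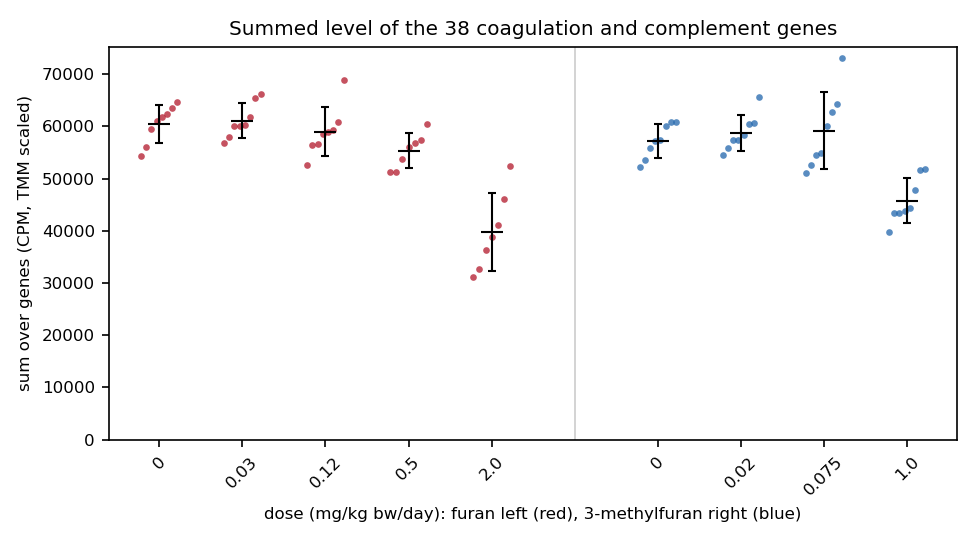
Summed level of the 38 genes in CPM (vertical axis) by dose of furan and 3-methylfuran in mg/kg body weight per day (horizontal axis), 1 point per rat, with the mean and SD of each group. The 7 rats at furan 2.0 lie between 31114 and 52413 CPM and the 8 rats at 3-methylfuran 1.0 between 39698 and 51837 CPM, all below the controls of their own experiment.

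Counted gene by gene, 36 of 37 tested members were lower at furan 2.0 and 0 higher, by edgeR, where 22.5% of all 12727 genes tested were called lower. No member had an unadjusted p under 0.05 with a higher level at this dose, and DESeq2 and limma voom also called 36 lower and 0 higher. The median log2 fold change of the members was -0.64, beside 0.02 over all genes. At 3-methylfuran 1.0, 31 of 37 were lower, where again 22.5% of genes were called lower, and 1 was higher (Kng1), where 21.2% were called higher. Here the members' median was -0.43, beside -0.00 over all genes. With library size as the only scaling, the median of all genes itself moved to 0.42 at furan 2.0 and 0.25 at 3-methylfuran 1.0. The members' medians were then -0.26 and -0.18, with 28 lower and 2 higher for furan and 20 lower and 2 higher for 3-methylfuran. All folds given here are relative to TMM scaling. Every rat lay below every control in 22 of 37 members at furan 2.0, beside 5.57% of genes tested, and in 21 of 37 at 3-methylfuran 1.0, beside 6.08%.

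**Figure D2:**
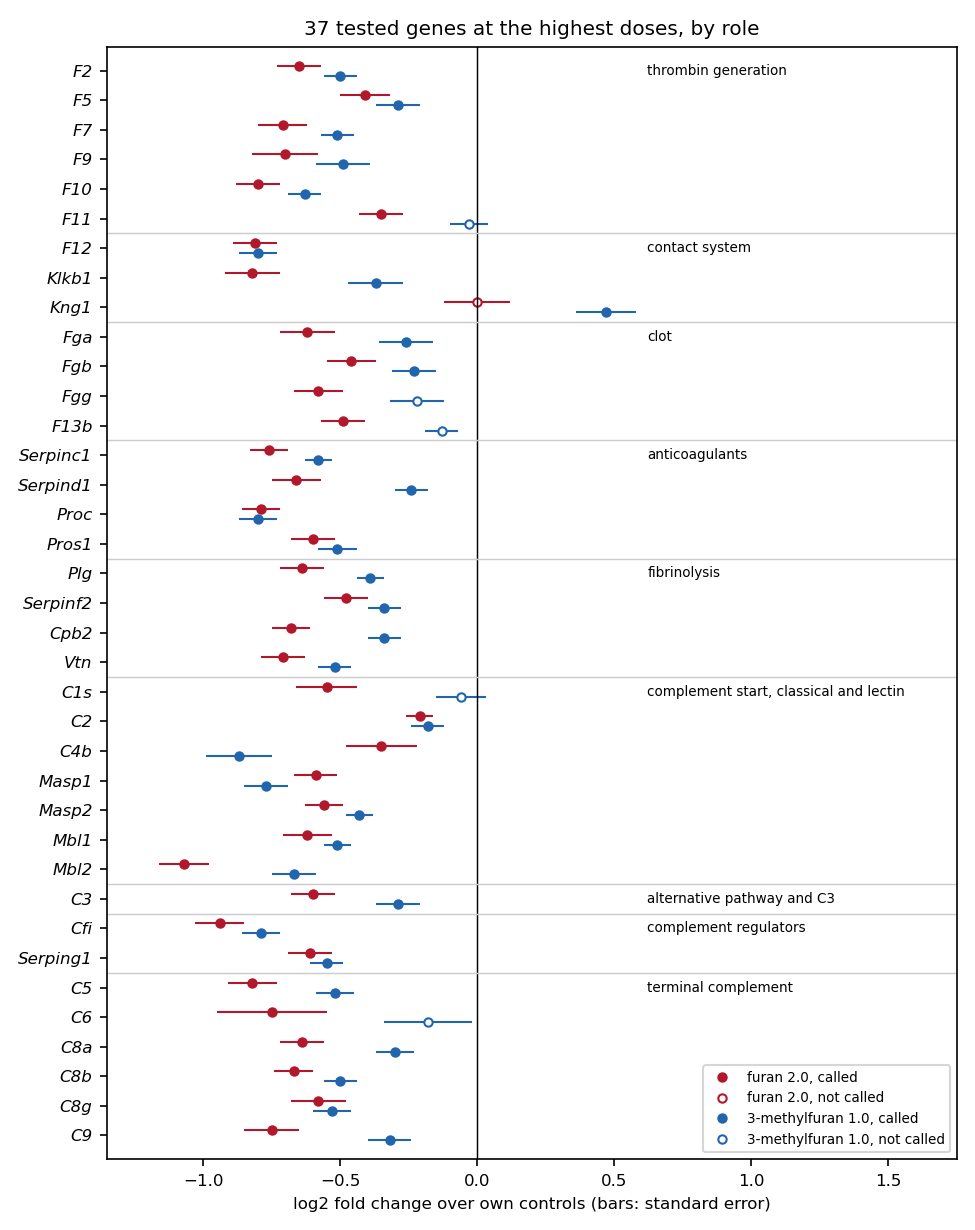
Log2 fold change over own controls (horizontal axis, bars are standard errors) of the 37 tested genes, grouped by role, at furan 2.0 (red) and 3-methylfuran 1.0 (blue); filled points were called by edgeR. Estimates run from -1.07 (Mbl2) to 0.00 (Kng1) for furan and from -0.87 (C4b) to 0.47 (Kng1) for 3-methylfuran; with library size as the only scaling, F11, C2 and C4b turn positive for furan and F11, Fgb, Serpind1 and C2 for 3-methylfuran.

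The 6 genes of thrombin generation comprise prothrombin itself (F2), the cofactor F5 and the protease precursors F7, F9, F10 and F11. All 6 fell at furan 2.0, by 21.6% (F11) to 42.7% (F10), although the F11 estimate turned positive (0.02 on the log2 scale) with library size as the only scaling. F10, which encodes the protease that cleaves prothrombin, was 454.8, 523.9 and 567.2 CPM in the lowest, median and highest furan control and 220.5, 286 and 381 CPM at furan 2.0. In 3-methylfuran controls F10 was 422, 489 and 563 CPM, and at 3-methylfuran 1.0 it was 277, 315 and 355 CPM. In both experiments the dosed rats lay wholly below the controls, and the log2 fold changes were -0.80 ± 0.08 (SE; adjusted p = 2.75e-10 by edgeR) and -0.63 ± 0.06 (4.75e-11). Prothrombin fell by 36.1% and 29.1%, again without overlap in either experiment. F7, the precursor that tissue factor activates, fell by 38.9% and 30%, and its highest rat at furan 2.0 (69.7 CPM) lay above the lowest control (68.2 CPM). F9, which is defective in haemophilia B, fell by 38.4% and 28.8%, and F5 by 24.5% and 18.3%; dosed and control rats overlapped for both genes. F11 at 3-methylfuran 1.0 was not called (log2 fold change -0.03 ± 0.07, adjusted p = 0.754 by edgeR).

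The contact system starts clotting on negatively charged surfaces and releases bradykinin, and its 3 genes parted ways. F12, its initiating protease, was 667, 735 and 835 CPM in furan controls and 303, 386 and 574 CPM at furan 2.0. With 3-methylfuran, F12 went from 684, 781 and 886 CPM in controls to 352.3, 465.7 and 527.1 CPM at 1.0 mg/kg body weight per day. Neither dosed group overlapped its controls, and the log2 fold changes were -0.81 ± 0.08 and -0.80 ± 0.07. Klkb1, plasma prekallikrein, which activates factor XII, was 301, 317 and 385 CPM in furan controls and 136, 178 and 249 CPM at furan 2.0 (-0.82 ± 0.10, adjusted p = 3.89e-08 by edgeR), with no overlap. At 3-methylfuran 1.0 Klkb1 was 155, 205 and 281 CPM, beside 216, 264 and 321 CPM in controls, and fell by less (-0.37 ± 0.10, adjusted p = 0.00271 by edgeR) with overlapping ranges.

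Kng1, high-molecular-weight kininogen, the precursor of bradykinin, was the only member called higher in any comparison with controls by edgeR with TMM scaling. At 3-methylfuran 1.0 it was 1776, 2032 and 3178 CPM in the lowest, median and highest rat, beside 1359, 1510 and 1932 CPM in the controls. The groups overlapped, and Kng1 rose by 0.47 ± 0.11 on the log2 scale (38.5%, adjusted p = 0.000849 by edgeR). At furan 2.0 Kng1 was 1251, 1570 and 2167 CPM, beside 1271, 1674 and 1785 CPM in controls, an estimate of 0.00 ± 0.12 (adjusted p = 0.981 by edgeR). That flat estimate depends on the scaling. With library size as the only scaling, Kng1 was among the 2 members called higher at furan 2.0. Rats carry several closely related kininogen genes, and how reads matching more than 1 of them were counted is not given in the sources used here, so the Kng1 values are uncertain in that respect.

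Fibrin is built from 3 fibrinogen chains, whose genes Fga, Fgb and Fgg are neighbours on 1 chromosome, and F13b encodes the carrier subunit of the enzyme that cross-links it. All 4 fell at furan 2.0, by 27.5% (Fgb) to 35.1% (Fga). Fga was 4650, 5666 and 6537 CPM in furan controls and 2848, 3814 and 4647 CPM at furan 2.0, so that the highest dosed rat lay just under the lowest control. The other chains overlapped: Fgb was 4636, 5705 and 6715 CPM in furan controls and 3494, 4243 and 4984 CPM at furan 2.0. At 3-methylfuran 1.0 Fga and Fgb fell by 16.4% and 14.5% (adjusted p = 0.0269 and 0.0295 by edgeR), the Fgb estimate turning to 0.02 with library size as the only scaling. Fgg was not called there (log2 fold change -0.22 ± 0.10, adjusted p = 0.0583 by edgeR), with a 95% interval of -0.41 to -0.03 beside -0.45 to -0.06 for Fga. F13b was 238, 268 and 314 CPM in furan controls and 145, 199 and 245 CPM at furan 2.0 (-0.49 ± 0.08). At 3-methylfuran 1.0 F13b was 164, 186 and 219.7 CPM, beside 194, 211 and 222 CPM in controls, and was not called (-0.13 ± 0.06, adjusted p = 0.0784 by edgeR).

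The sequences before the start sites are shown for the 3 fibrinogen genes, which all fell at furan 2.0, and for Kng1. Kng1 was called higher at 3-methylfuran 1.0 and, with TMM scaling, was unchanged in its estimate at furan 2.0. They are the 250 bases before each start in RefSeq on the GRCr8 build, a later build than the authors' alignment: chr2:170671919-170672168 on the plus strand for Fga (the first of 2 listed starts), chr2:170700876-170701125 on the minus strand for Fgb, chr2:170652833-170653082 on the plus strand for Fgg and chr11:91340149-91340398 on the minus strand for Kng1. Capitals mark matches, on either strand, to short motifs named after liver or acute phase factors: CAAAGGTCA (HNF4-like), TGTTTAC (FOXA-like), TTGCNNAA (C/EBP-like) and CTGGGAA (like the core of an interleukin-6 response element).
Fga: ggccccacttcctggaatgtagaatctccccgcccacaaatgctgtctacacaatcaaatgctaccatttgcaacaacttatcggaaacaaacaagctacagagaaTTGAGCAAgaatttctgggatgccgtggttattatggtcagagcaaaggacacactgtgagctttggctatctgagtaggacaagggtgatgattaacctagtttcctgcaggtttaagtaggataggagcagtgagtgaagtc
Fgb: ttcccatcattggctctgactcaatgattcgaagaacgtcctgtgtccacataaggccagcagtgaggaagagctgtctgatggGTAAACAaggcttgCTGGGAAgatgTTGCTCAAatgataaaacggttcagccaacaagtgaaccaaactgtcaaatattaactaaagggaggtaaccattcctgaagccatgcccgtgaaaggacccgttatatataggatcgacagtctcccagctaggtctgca
Fgg: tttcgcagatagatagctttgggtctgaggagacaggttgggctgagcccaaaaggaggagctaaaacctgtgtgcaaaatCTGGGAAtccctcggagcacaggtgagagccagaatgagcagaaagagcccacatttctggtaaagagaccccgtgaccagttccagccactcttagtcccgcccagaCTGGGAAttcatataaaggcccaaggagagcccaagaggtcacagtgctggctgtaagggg
Kng1: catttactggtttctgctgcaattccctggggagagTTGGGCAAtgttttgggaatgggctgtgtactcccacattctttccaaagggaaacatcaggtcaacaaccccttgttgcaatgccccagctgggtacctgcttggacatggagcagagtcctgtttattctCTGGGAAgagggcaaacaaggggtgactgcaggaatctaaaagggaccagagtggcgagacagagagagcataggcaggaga
Fga holds a C/EBP-like match, Fgb a FOXA-like, a C/EBP-like and an interleukin-6 element-like match, and Fgg 2 interleukin-6 element-like matches. Kng1 holds a C/EBP-like and an interleukin-6 element-like match, so these letters do not set it apart from the fibrinogen genes. Of the 38 members, 29 had such a window. The C/EBP-like letters were in at least 1 window of 10 of the 29 (34.5%) and of 9.99% of all 27457 genes with windows, the interleukin-6 element-like letters in 9 (31%) and 10.2%, and the FOXA-like letters in 4 (13.8%) and 3.54%. The HNF4-like letters were in 2 of the 29 (F7 and F9), beside 0.379% of all genes. A match is a description of these letters and says nothing on binding.

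The anticoagulant genes fell along with the clotting factors. Serpinc1 encodes antithrombin, Serpind1 heparin cofactor II, Proc protein C and Pros1 its cofactor protein S. All 4 fell with each compound, with medians of -0.71 at furan 2.0 and -0.54 at 3-methylfuran 1.0, except that the Serpind1 estimate for 3-methylfuran became 0.00 with library size as the only scaling. Serpinc1 was 2386, 2606 and 2834 CPM in furan controls and 1185, 1463 and 1962 CPM at furan 2.0. In the other experiment Serpinc1 was 2468, 2816 and 3054 CPM in controls and 1685, 1858 and 2076 CPM at 3-methylfuran 1.0. It fell by 40.9% and 33%, with no overlap in either case. Proc went from 439.9, 476 and 556 CPM in furan controls to 221, 256 and 365 CPM, and from 425, 501 and 559.7 CPM in 3-methylfuran controls to 228, 290.3 and 321 CPM. Its folds were nearly equal at these doses (-0.79 ± 0.07 and -0.80 ± 0.07; adjusted p = 1.14e-10 and 9.84e-12 by edgeR), again without overlap. Pros1 fell by 33.9% and 29.9% without overlap. Serpind1 was 827.9, 900.3 and 971.8 CPM in furan controls and 411.4, 545.5 and 806 CPM at furan 2.0, below every control (-0.66 ± 0.09). At 3-methylfuran 1.0 it was 633, 680.3 and 851 CPM, beside 739, 840.6 and 974.5 CPM, and fell by 15.5% with overlapping ranges.

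Among the genes of fibrin removal, Plg encodes plasminogen, and Serpinf2 (alpha-2-antiplasmin) and Cpb2 (a carboxypeptidase that shields fibrin) restrain its action. Vtn encodes vitronectin, an adhesion protein of plasma. All 4 fell with both compounds. Plg was 3813, 4229 and 4441 CPM in furan controls and 2109, 2542 and 3403 CPM at furan 2.0 (-0.64 ± 0.08), and 3511, 3869 and 4325 against 2546, 2889 and 3234 CPM with 3-methylfuran (-0.39 ± 0.05). Vtn fell by 39% and 30.1%. For Plg and Vtn no dosed rat at either top dose reached the lowest control. Cpb2 was 582.7, 618.5 and 671 CPM in furan controls and 303, 363 and 517 CPM at furan 2.0, and fell by 37.5%. At 3-methylfuran 1.0 Cpb2 was 373.1, 428.9 and 497.2 CPM, just under its controls at 497.6, 549.3 and 582.4 CPM, and fell by 21.1%. Serpinf2 fell by 28.2% and 21.1%, and its ranges overlapped in both experiments.

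Complement is started by C1s, C2 and C4b in the classical pathway and by the mannose-binding lectins Mbl1 and Mbl2 with their proteases Masp1 and Masp2 in the lectin pathway. All 7 fell at furan 2.0 and 6 of 7 at 3-methylfuran 1.0; with library size as the only scaling C2 and C4b turned positive for furan (0.18 and 0.06) and C2 for 3-methylfuran (0.06). Mbl2 had the largest fall of all members at furan 2.0. It was 45.9, 49.2 and 54.5 CPM in furan controls and 17.6, 22.8 and 33.4 CPM at furan 2.0, a log2 fold change of -1.07 ± 0.09 (52.3% lower, adjusted p = 2.36e-11 by edgeR). With 3-methylfuran Mbl2 went from 38.9, 45.5 and 51.2 CPM to 24, 28.4 and 34 CPM (-0.67 ± 0.08). Both dosed groups lay below all their controls. Mbl1, the other lectin, fell by 34.8% and 29.6%, also without overlap.

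Masp1 was 172, 203 and 216 CPM in furan controls and 108, 128 and 173 CPM at furan 2.0, where only the highest dosed rat reached the control range (-0.59 ± 0.08). At 3-methylfuran 1.0 it was 88.8, 116 and 139.7 CPM, below controls at 179.9, 191 and 208 CPM (-0.77 ± 0.08). Masp2, the protease that cleaves C4 and C2, fell by 32.1% and 25.7% without overlap. C4b had the largest fall of all members at 3-methylfuran 1.0: it was 27.2, 31.4 and 43 CPM in controls and 14.6, 17.9 and 23.4 CPM in dosed rats (-0.87 ± 0.12, 45.5% lower). At furan 2.0 C4b was 15.5, 20.2 and 28.8 CPM, beside 20.9, 26.3 and 34.2 CPM. The ranges overlapped, and the call did not hold under every alternative (-0.35 ± 0.13, adjusted p = 0.0304 by edgeR); with no filter on low counts the adjusted p was 0.0735 and with these groups alone 0.0558. C4b has a near-identical copy, C4a, and reads that match both may be divided between them. C1s, which cleaves C4 and C2 in the classical pathway, was 436.4, 544.9 and 640.3 CPM in furan controls and 279.9, 345 and 483 CPM at furan 2.0 (-0.55 ± 0.11). At 3-methylfuran 1.0 C1s was 369.7, 479.8 and 581 CPM, beside 453, 482 and 565 CPM, and was not called (-0.06 ± 0.09, adjusted p = 0.665 by edgeR). C2, the protease part of the convertase that cleaves C3, fell by 13.8% and 12%.

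C3, on which the starting pathways converge, was 13910, 15140 and 16507 CPM in furan controls and 7719, 9417 and 13931 CPM at furan 2.0; it fell by 33.9%, and the highest dosed rat just reached the lowest control. At 3-methylfuran 1.0 C3 fell by 18% (adjusted p = 0.00351 by edgeR) with overlapping ranges. Cfb, the protease of the alternative pathway, had between 1 and 20 counts in each of the 70 rats, too few for a test, and no direction is given for it.

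The regulators Cfi and Serping1 fell with both compounds. Cfi cleaves the active forms of C3 and C4. It was 979.9, 1143 and 1262 CPM in furan controls and 439, 571 and 800.3 CPM at furan 2.0 (-0.94 ± 0.09, 47.7% lower), and 960.3, 1109 and 1190 against 534, 637 and 741 CPM with 3-methylfuran (-0.79 ± 0.07, 42.2% lower). Serping1, the C1 inhibitor, which also restrains plasma kallikrein and factor XIIa, fell by 34.6% and 31.7%. Neither gene overlapped its controls in either experiment.

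The 6 genes of the terminal pore all fell at furan 2.0, with log2 fold changes of -0.82 (C5) to -0.58 (C8g). C5, whose cleavage begins pore assembly, was 706, 808 and 903 CPM in furan controls and 348, 449 and 607 CPM at furan 2.0. In 3-methylfuran rats C5 was 641, 703 and 751 CPM in controls and 385, 509 and 606 CPM at 1.0 mg/kg body weight per day. Neither dosed group overlapped its controls, and C5 fell by 43.4% and 30.2%. C8a, a chain of C8, was 1047, 1164 and 1306 CPM in furan controls and 593, 719 and 969 CPM at furan 2.0, and 870.1, 912 and 1001 against 671, 751 and 862 CPM with 3-methylfuran; it fell by 35.7% and 18.6%, with no overlap. The other C8 chains C8b and C8g fell by 37.3% and 33.1% with furan and by 29.2% and 30.7% with 3-methylfuran. C9, which forms the wall of the pore, was 1331, 1436 and 1649 CPM in furan controls and 648, 879 and 1143 CPM at furan 2.0 (-0.75 ± 0.10), with no overlap. At 3-methylfuran 1.0 C9 was 847, 1031 and 1223 CPM, beside 1154, 1298 and 1364 CPM, and fell by 19.9% with overlap. C6 varied most among these: 212, 298.4 and 526.2 CPM in furan controls and 134, 209 and 276 CPM at furan 2.0 (-0.75 ± 0.20, adjusted p = 0.00276 by edgeR). At 3-methylfuran 1.0 C6 was 186, 235 and 393 CPM, beside 213, 258 and 432 CPM, and was not called (-0.18 ± 0.16, adjusted p = 0.384 by edgeR).

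**Figure D3:**
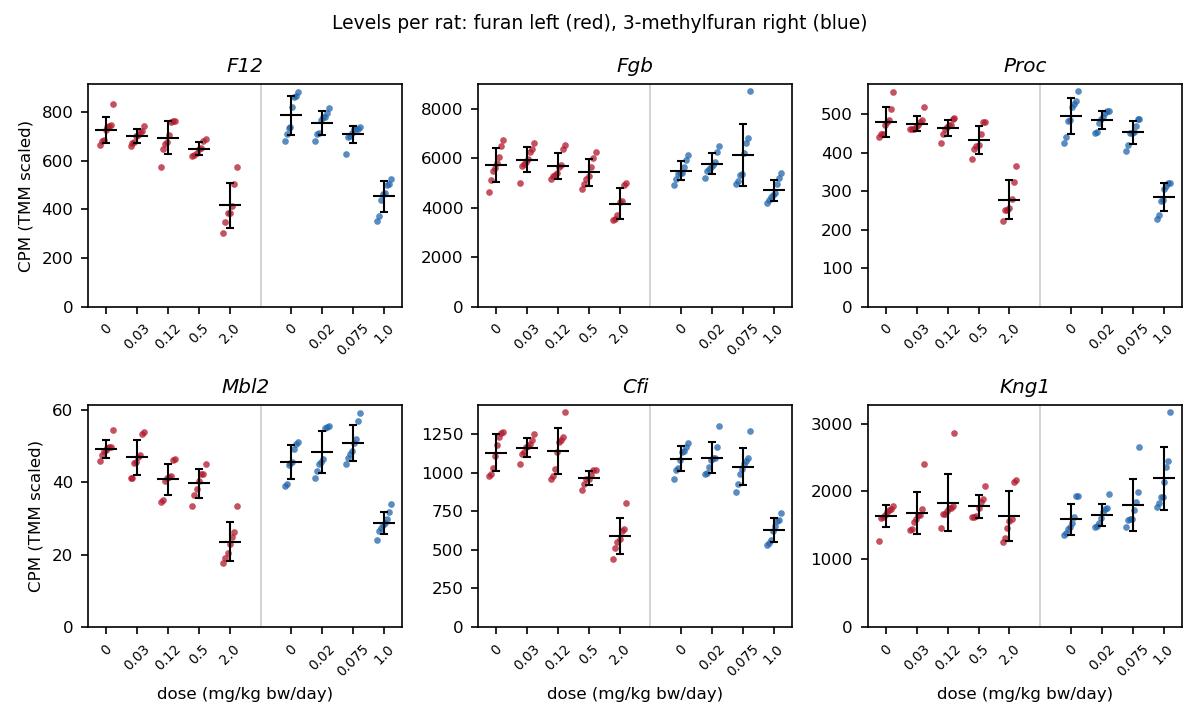
CPM of F12, Fgb, Proc, Mbl2, Cfi and Kng1 (vertical axes, each from 0) in every rat by dose in mg/kg body weight per day, furan in red and 3-methylfuran in blue, with group mean and SD. F12, Proc, Mbl2 and Cfi at the highest doses lie below all their controls, and Fgb overlaps its controls. Kng1 is higher only at 3-methylfuran 1.0 by the edgeR test with TMM scaling.

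Below the highest doses almost nothing was called. At furan 0.5, 1 of 37 members was lower, where 1.66% of genes were called lower: Mbl2, at 33.5, 40.2 and 45 CPM in the lowest, median and highest rat (log2 fold change -0.31), below every control. With no filter on low counts this call was lost. At that dose 35 of 37 estimates were below 0, beside 47.9% of all genes, 11 were lower at an unadjusted p under 0.05, beside 8.41% of all genes, and the members' median was -0.13. At furan 0.12 and 0.03, 0 of 37 were called by edgeR, beside 1.94% and 0.0707% of genes in either direction; at an unadjusted p under 0.05 there were 1 lower and 1 higher at furan 0.12 and 0 at furan 0.03. The 3-methylfuran doses of 0.075 and 0.02 likewise gave 0 calls, beside 1.37% and 0.0335% of genes, with 7 lower and 2 higher at an unadjusted p under 0.05 at 0.075, beside 7.22% and 6.17% of all genes, and 0 at 0.02. DESeq2 and limma voom also called 0 members in each of these 4 groups. The members' medians were -0.00 and -0.05 at furan 0.03 and 0.12 and 0.04 and -0.00 at 3-methylfuran 0.02 and 0.075. Between the upper furan doses, 35 of 37 members were lower at 2.0 than at 0.5, beside 16.5% of genes, with a median log2 difference of -0.50. The Mbl2 medians were 49.2, 46.3, 41.3, 40.2 and 22.8 CPM from furan control to furan 2.0. The corresponding Mbl2 medians in the 3-methylfuran experiment were 45.5, 46, 49.7 and 28.4 CPM.

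The effects of the compounds were then set side by side, the highest dose of each over its own controls. Dose, library kit and experiment all differed with the compound and cannot be told apart from it here, and no doses matched. At furan 2.0 the effect was lower than at 3-methylfuran 1.0 in 8 of 37 members, beside 3.72% of genes, and higher in 0 (1 higher at an unadjusted p under 0.05; limma voom called 10 lower and 0 higher). The 8 were C1s (difference of log2 fold changes -0.50, 95% interval -0.79 to -0.21), Klkb1 (-0.46, -0.74 to -0.17), C9 (-0.44, -0.70 to -0.18), Serpind1 (-0.42, -0.63 to -0.21), Mbl2 (-0.41, -0.65 to -0.17), F13b (-0.36, -0.56 to -0.17), C8a (-0.35, -0.56 to -0.13) and Cpb2 (-0.34, -0.53 to -0.16). The calls were not kept in a smaller furan 2.0 group, but that group cannot test them. The 4 rats left out had the lowest sums of the 38 genes at that dose (31114 to 38803 CPM). Leaving them out therefore made the furan fall smaller. Without the 4 rats with the highest bile duct marker sums (54.5 to 68.6 CPM), which were picked by that measured value after the data were seen and leave 3 rats, edgeR called 0 members lower, beside 0.623% of genes, and 0 higher (0 lower and 3 higher at an unadjusted p under 0.05), and the members' median difference went from -0.21 to 0.00. With all rats and library size as the only scaling, 4 were lower and 2 higher.

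Several members had estimates close together. Proc differed by 0.01 (95% interval -0.19 to 0.20), F12 by -0.02 (-0.24 to 0.20), C2 by -0.04 (-0.19 to 0.11) and Serping1 by -0.07 (-0.26 to 0.12). These genes were named because their estimates lay close together. Their intervals hold for each gene alone, without adjustment and with TMM scaling, and do not allow for that choice. C4b and Masp1 had the larger fall at the lower-dosed compound, with differences of 0.52 (0.15 to 0.89, adjusted p = 0.0717 by edgeR) and 0.17 (-0.05 to 0.40), neither of which was called. Kng1 differed by -0.47 (-0.81 to -0.14, adjusted p = 0.0686 by edgeR), also not called. Against the next lower furan dose the order turned. The effect was higher, that is, the fall smaller, at furan 0.5 than at 3-methylfuran 1.0 in 20 of 37 members, beside 10.8% of genes, with a median difference of 0.29 (10 higher and 1 lower with library size as the only scaling). C4b (0.78), Masp1 (0.67), Proc (0.65), F12 (0.63) and Cfi (0.56) had the largest differences.

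**Figure D4:**
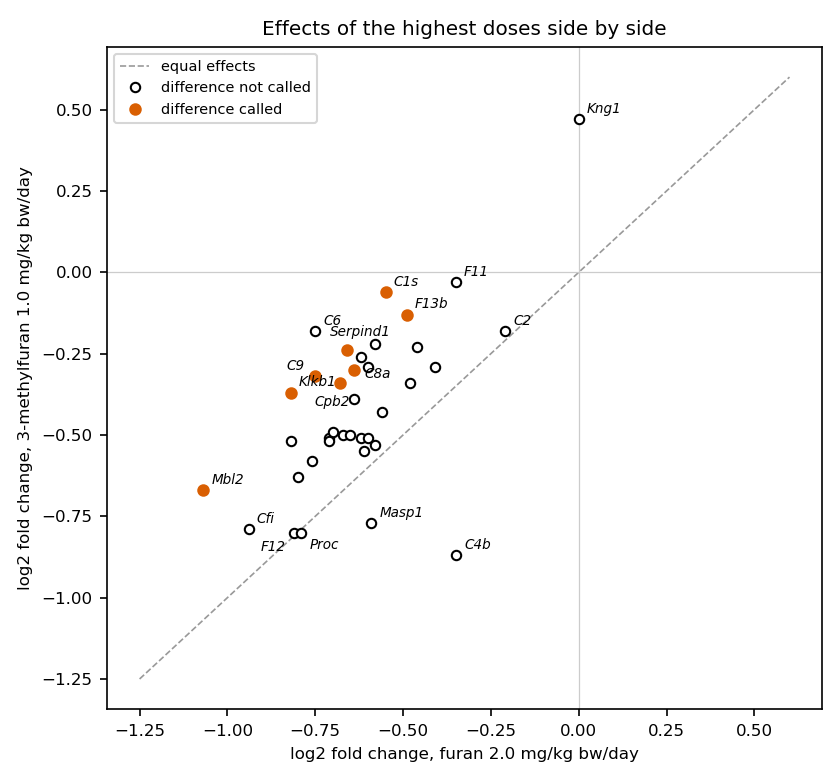
Log2 fold change at furan 2.0 (horizontal axis) and 3-methylfuran 1.0 mg/kg body weight per day (vertical axis), each over its own controls, 1 point per tested gene, with the line of equal effects. Most points lie above the line, and C4b and Masp1 lie below it. The 8 filled points were called different by edgeR. Without the 4 furan 2.0 rats with the lowest sums of these genes 0 were called, a fit that cannot test the calls. With library size as the only scaling, F11, C2 and C4b turn positive on the horizontal axis, and F11, Fgb, Serpind1 and C2 on the vertical one.

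Markers of other liver cells differed between the groups as well. The summed bile duct markers (Krt7, Krt19, Epcam, Sox9, Cftr and Spp1) were 6.4 to 12.7 CPM in furan controls. At furan 2.0 they were 54.5 to 68.6 CPM in 4 rats and 17.7 to 30 CPM in the other 3. The 8 stellate cell and myofibroblast markers summed to 127 to 209 CPM in furan controls, to 245 to 385 CPM in the same 4 rats and to 118 to 132 CPM in the other 3. Of these lists, 5 of 6 bile duct and 4 of 8 stellate markers were called higher at furan 2.0, and 2 stellate markers lower. Over all genes tested at that dose, 24% were called higher and 22.5% lower. The 4 rats had the lowest sums of the 38 genes, 31114 to 38803 CPM, and the other 3 had 41019, 46181 and 52413 CPM, still below the lowest control at 54375. Without the 4 rats, 31 members were lower, beside 10.1% of genes in that fit, and 0 higher, with a median of -0.41. The 4 were picked by their bile duct marker sums after the data were seen. The 3 rats kept still lay above every control in that sum. At 3-methylfuran 1.0 bile duct markers summed to 19.1 to 28 CPM (controls 7.24 to 10.9) and stellate markers to 87.3 to 101 CPM (controls 83.3 to 107), so that the stellate sums lay within the control range. Only 3 of the 6 bile duct markers passed the filter in that experiment, 1 called higher and 1 lower, beside 21.2% and 22.5% of all genes. Kupffer cell and macrophage markers had 0 of 7 called at either dose by edgeR, with medians of 0.03 and -0.05. At furan 2.0 red blood cell markers were lower in 3 of 3 tested (log2 fold changes of -1.05 to -0.84), with sums of 65 to 116 CPM against 104 to 216 CPM in controls. Endothelial markers were lower in 2 of 6 and platelet markers in 1 of 3, beside 22.5% of all genes, and 0 of either were higher. At 3-methylfuran 1.0, 1 of 3 red blood cell markers, 1 of 6 endothelial markers and 0 of 2 platelet markers were lower. The share of all genes called lower at this dose was 22.5%. The part of these markers' cells in the members' fall was not tested.

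**Figure D5:**
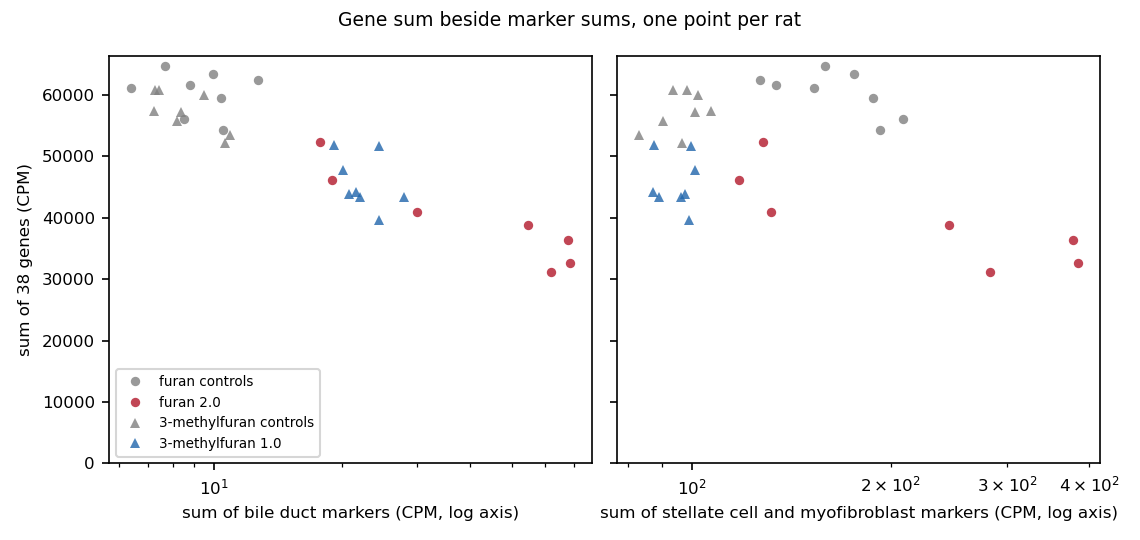
Summed CPM of the 38 genes (vertical axis, from 0) against summed CPM of bile duct markers (left) and of stellate cell and myofibroblast markers (right), both on log axes, 1 point per rat of the control and highest dose groups. The 4 furan 2.0 rats at 54.5 to 68.6 CPM of bile duct markers have the lowest gene sums, and the 3-methylfuran 1.0 rats lie below their controls at stellate sums in the control range. Sums are TMM scaled. As a share of raw counts the 4 furan 2.0 rats held 4.37 to 4.88%, beside 4.92 to 5.35% in the other 3.

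Other genes of the same pathways, many of them receptors, cell surface regulators or proteins made outside hepatocytes, included calls in both directions. Of 66 such genes matched, 56 were tested at furan 2.0, with 14 higher, beside 24% of all genes, and 21 lower, beside 22.5%. At 3-methylfuran 1.0, 54 were tested, with 9 higher, beside 21.2%, and 17 lower, beside 22.5%. The medians of the list were -0.04 and -0.05, beside 0.02 and -0.00 over all genes. Among the largest rises at furan 2.0 were those of Anxa2, a cell surface anchor for plasminogen and its activator (3.12 ± 0.44 on the log2 scale), the pore component C7 (2.15 ± 0.46) and S100a10, the partner of Anxa2 (2.05 ± 0.36). C7 thus rose where the 6 terminal members fell: it was 2.68 to 10 CPM in furan controls and 4.31 to 50.3 CPM at furan 2.0, an overlapping and wide range. At 3-methylfuran 1.0 Anxa2 rose by 1.85 ± 0.20, the complement regulator gene Cd46 by 1.70 ± 0.18 and Procr, the protein C receptor, by 0.64 ± 0.21, while C7 was not called (-0.33 ± 0.29, adjusted p = 0.378 by edgeR).

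At furan 2.0 the largest falls on this list included those of C5ar2, a receptor for C5a (-0.89 ± 0.14), of C1rl (-0.82 ± 0.08) and Cpn2, a subunit of the enzyme that inactivates C3a and C5a (-0.72 ± 0.07). At 3-methylfuran 1.0 they were C1rl (-0.66 ± 0.08), Cpn2 (-0.63 ± 0.06), Cfd (-0.53 ± 0.16) and Fcna (-0.46 ± 0.18). C5ar2 was also the only gene of this list called at a lower dose, at furan 0.12 (-0.60 ± 0.14) and 0.5 (-0.76 ± 0.15). The C1q chains C1qa, C1qb and C1qc, which macrophages make, were not called at either highest dose, with log2 fold changes of -0.02, 0.02 and -0.01 for furan and -0.29, -0.15 and -0.26 for 3-methylfuran. The vitamin K enzymes that clotting factors need went in opposite directions: Ggcx, the carboxylase, rose by 0.17 ± 0.06 and 0.32 ± 0.04, and Vkorc1, the reductase that recycles vitamin K, fell by 0.53 and 0.46.

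Most other plasma protein genes tested were lower at both highest doses. Of 29 other plasma protein genes tested, 25 were lower and 1 higher at furan 2.0 and 22 lower and 3 higher at 3-methylfuran 1.0, with medians of -0.56 and -0.38, near those of the 37 members. Albumin (Alb) fell by 0.55 and 0.26 on the log2 scale, the fibrinogen-like gene Fgl1 by 1.28 and 1.22, and the apolipoprotein gene Apoa1 rose by 0.85 ± 0.11 and 1.13 ± 0.13. Of the plasma protein genes listed as raised by inflammation, among them Orm1, Crp and Saa4, 10 of 11 and 9 of 11 tested fell as well. Hp and Serpina3n of that list matched no gene. Whether inflammation raises each listed gene in rat was not tested. Of 19 transcription factor genes, 13 were lower and 1 higher at furan 2.0 (median -0.49). At 3-methylfuran 1.0, 8 were lower, 0 higher and 11 not called (median -0.19). At each of these doses 22.5% of all genes were called lower. Hnf4a, which drives many clotting genes, fell by 0.49 and 0.41, and Cebpa by 0.97 and 0.59. Cebpa was also lower at furan 0.5 (-0.44 ± 0.13) and 3-methylfuran 0.075 (-0.49 ± 0.10). Stat3, which carries the interleukin-6 signal, rose by 0.51 ± 0.10 at furan 2.0 and was not called at 3-methylfuran 1.0 (-0.05 ± 0.12).

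In the authors' deposited tables, 36 of the 38 members were lower and 0 higher at furan 2.0, 32 lower and 1 higher at 3-methylfuran 1.0, and 1 lower at furan 0.5, at their adjusted p under 0.05. The 32 include Cfb (ratio 0.608, adjusted p = 0.0244 by the authors' DESeq2), for which no direction is given here because of its low counts. The authors' deposited tables list 0 members past that threshold in the other 4 comparisons.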

How the data were processed

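Poly(A) RNA of rat liver was sequenced in 70 rats, 172 runs in all. Per the labels' protocols, total RNA came from frozen liver, with a TruSeq Stranded mRNA library kit for 3-methylfuran and its later successor for furan. The submitters' processing notes list the Rnor 6.0 build, featureCounts 2.0.0, STAR 2.7.1a and DESeq2 1.26.0. Which annotation release and strand setting were used, and how reads matching several genes were counted, is not given in the sources used here. In their files the authors deposited whole-number counts per gene and run without normalization. The deposited furan comparison table holds a signed fold change (the authors give decreases as minus the reciprocal) and the deposited 3-methylfuran table holds a plain ratio; both hold an adjusted p-value that the authors computed.

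Runs of a rat were summed (chi-square over its degrees of freedom 1.007 to 1.073 for furan and 1.0 to 1.044 for 3-methylfuran, over genes with at least 20 counts), so that n counts rats. Symbols came from the deposited comparison tables; the 13106 genes without one held at most 8 counts each. Genes passed filterByExpr (minimum count 10, on the dose groups), libraries were scaled by TMM, and each experiment was fitted once with all its groups by the edgeR 4.0.16 quasi-likelihood test (robust) in R 4.3.3, with Benjamini-Hochberg adjustment over all genes tested. Differences between compounds came from 1 fit of all 70 rats, with 95% intervals. The standard error is the log2 fold change divided by the square root of F. The alternatives were DESeq2 1.42.0, limma 3.58.1 (voom), RLE scaling, library size alone, no filter, fits of 2 groups only, leaving out each rat of the highest dose and control groups, and, chosen after seeing the data, leaving out 4 furan 2.0 rats.

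The genes and lists were chosen with earlier results of these data known. Values per rat were given for the 12 members with the largest change of at least 0.5 on the log2 scale at either highest dose, for members called at a lower dose and for those whose effects differed between the highest doses; Kng1 and the other members with values per rat were added after their values were seen. Of the other pathway genes, the 4 with the largest called change in each direction and those called at lower doses were named, except items that are not reported here; C7 at 3-methylfuran 1.0, the C1q chains, Ggcx, Vkorc1, the plasma proteins and the transcription factors were chosen after their values were seen. Of the list symbols, 19 did not match exactly 1 gene. Promoter windows came from RefSeq (GRCr8).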

Additional observations from a re-analysis of the deposited data

Results flagged for a closer look

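In 342 groups of 7 or 8 rats (37 genes and their sum with Cfb in 9 groups), the rat at 1 end stood apart from the others 14 times by Dixon's 95% criterion, which chance meets in about 1 of 20 groups. Kng1 gave 4 of the 14. Its lowest furan control was at 1271 CPM with the next at 1613, its highest rat at furan 0.03 was at 2409 with the next at 1738, its highest at furan 0.12 was at 2857 with the next at 1790, and its highest at 3-methylfuran 0.075 was at 2660 with the next at 1993. The furan 0.12 rat with that Kng1 level was also highest and apart in C5 (996 CPM, next 826), C8a (1444, next 1151) and C9 (1934, next 1441). At 3-methylfuran 0.075, 1 rat was lowest and apart in both F12 (629 CPM, next 698) and Mbl1 (195, next 204). The others were F5 (348 CPM, highest at 3-methylfuran 0.02, next 282), Masp2 (284, lowest at 3-methylfuran 0.02, next 315), Klkb1 (359, highest at furan 0.5, next 271), Proc (519, highest at furan 0.03, next 484) and Mbl2 (54.5, highest furan control, next 49.7). None of the 14 was at a highest dose.

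Effects that differed between the compounds by edgeR were flagged as well. At furan 2.0 the log2 effect was lower than at 3-methylfuran 1.0 for C1s (-0.50), Klkb1 (-0.46), C9 (-0.44), Serpind1 (-0.42), Mbl2 (-0.41), F13b (-0.36), C8a (-0.35) and Cpb2 (-0.34). At furan 0.5 it was higher than at 3-methylfuran 1.0 for C4b (0.78), Masp1 (0.67), Proc (0.65), F12 (0.63), Cfi (0.56), Pros1 (0.47), F10 (0.44), Serping1 (0.44), F9 (0.43), C8g (0.40), Serpinc1 (0.38), F7 (0.36), F2 (0.35), Mbl2 (0.35), Vtn (0.33), C5 (0.33), C8b (0.31), Masp2 (0.29), Mbl1 (0.29) and Plg (0.25). Doses did not match between the compounds in either comparison.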

How the results depend on the processing

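Leaving out each rat of the highest furan dose and its controls in turn gave 35 to 36 members lower and 0 higher, and leaving out each rat of the highest 3-methylfuran dose and its controls gave 29 to 33 lower and 1 higher. With library size as the only scaling, 2 members became higher at furan 2.0 (28 lower), 20 were lower and 2 higher at 3-methylfuran 1.0, the differences between the highest doses became 4 lower and 2 higher, and those between furan 0.5 and 3-methylfuran 1.0 became 1 lower and 10 higher. Under it the log2 estimates that reversed were F11 (0.02), C2 (0.18) and C4b (0.06) at furan 2.0 and F11 (0.21), Fgb (0.02), Serpind1 (0.00) and C2 (0.06) at 3-methylfuran 1.0, and the median of all genes moved to 0.42 and 0.25. With no filter on low counts 0 members were lower at furan 0.5 (Mbl2 lost its call), and 12 were at an unadjusted p under 0.05. With the 4 furan 2.0 rats with the highest bile duct marker sums left out, an alternative chosen after seeing the data, 0 members differed between the highest doses in place of 8. Those 4 rats also had the lowest sums of the 38 genes, so this alternative cannot test the 8 calls. Over the 6 planned settings other than leaving out a rat, 211 of 222 values at furan 2.0 and 209 of 222 at 3-methylfuran 1.0 kept their direction and their side of the threshold. The cause of these shifts was not tested. No paired analysis was possible because the groups share no replicate numbers. Cfb, at 1 to 20 counts, is too shallow for a direction.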
